A study of Mus musculus with 21 samples.

Results

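Transcripts of 50 cell cycle and DNA replication genes were measured by RNA sequencing in mouse livers with chemically induced fibrosis and in cultured mouse hepatocytes. The genes were matched by symbol, and all 50 were found among the 54532 genes of the CCl4 and hepatocyte tables and among the 34280 genes of the TAA table. They comprise 17 genes of the G1/S transition and of DNA replication and 33 genes of G2 and mitosis (G2/M). Levels are given in FPKM (fragments scaled to gene length and library depth), and groups were compared within each deposited table only.

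The 21 libraries fall into 7 groups of 3. In the CCl4 table, livers of mice labelled as Sting knockout and livers of wild-type mice had received intraperitoneal carbon tetrachloride (CCl4), a hepatocyte toxin that is given repeatedly to cause scarring, and wild-type livers that had received oil served as controls. The sample labels give 6 weeks for these 3 groups, whereas 8 weeks of CCl4 and olive oil stand in the design text. The second table holds primary hepatocytes of wild-type mice treated for 6 h with LPS, a bacterial cell wall component, and for 30 min with nigericin, a potassium ionophore. In 1 of its 2 groups the cells had also received MCC950, an inhibitor of the NLRP3 inflammasome, 2 h before. In the TAA table, livers with a hepatocyte-specific Nlrp3 deletion and wild-type livers had both received intraperitoneal thioacetamide (TAA), another liver toxin, for 8 weeks. The sources used here name neither the Cre driver of that deletion nor the Sting allele, and nothing states that the 3 libraries of a group came from separate animals or cultures, so p-values measure the spread between libraries, which may be technical.

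Adult hepatocytes are mostly quiescent and re-enter the cell cycle when liver tissue is lost, and in an injured liver macrophages, stellate cells and duct cells divide as well. Passage from G1 into S phase is driven by D and E cyclins, which release E2F factors to transcribe the licensing and replication genes. The genes of G2 and mitosis are kept off in resting cells by the DREAM complex and are switched on later by MuvB with B-MYB and FOXM1. That repression and activation runs through a promoter element called CHR, often beside CCAAT boxes bound by NF-Y, whereas E2F sites are typical of the replication genes.

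These elements were looked for in RefSeq promoter windows of 300 bases (250 before to 50 after the annotated start, build GRCm38.p6), which were matched for 39 of the 50 genes. The CHR was searched as TTTGAA and TTCGAA, the CCAAT box as CCAAT, and the E2F site as TTTGGCGC, TTTCCCGC, TTTCGCGC and TTTGCCGC, on both strands, with overlapping matches of a motif allowed. A CHR match was found in 21 of 26 G2/M promoters (80.8%) and in 1 of 13 G1/S and replication promoters (7.69%), beside 19.4% of all 27025 promoters in the same table. A CCAAT box was found in 22 of the 26 G2/M promoters (84.6%) and in 7 of the 13 others (53.8%), beside 37.8% of all promoters. For the E2F letters the order was reversed, with 1 G2/M promoter (3.85%, Cdk1) and 5 G1/S and replication promoters (38.5%) holding a match, beside 2.34% of all promoters. A match describes letters only and is not a bound site.

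The 250 bases upstream of the start are printed for 2 genes of each class whose levels are given below. A link between these letters and the levels was not tested. Mki67 encodes the proliferation antigen Ki-67 and Ube2c a ubiquitin-conjugating enzyme of mitotic exit, while Mcm6 encodes a subunit of the replicative helicase and Pcna the sliding clamp of the DNA polymerases. Capitals mark CHR, CCAAT and E2F matches on either strand, and each sequence runs 5′ to 3′ on the strand of its gene.
Mki67: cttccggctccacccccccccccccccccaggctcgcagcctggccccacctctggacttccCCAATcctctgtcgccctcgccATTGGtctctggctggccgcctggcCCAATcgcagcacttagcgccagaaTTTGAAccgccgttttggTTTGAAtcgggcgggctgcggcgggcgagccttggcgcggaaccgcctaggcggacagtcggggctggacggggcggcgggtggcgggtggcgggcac
Ube2c: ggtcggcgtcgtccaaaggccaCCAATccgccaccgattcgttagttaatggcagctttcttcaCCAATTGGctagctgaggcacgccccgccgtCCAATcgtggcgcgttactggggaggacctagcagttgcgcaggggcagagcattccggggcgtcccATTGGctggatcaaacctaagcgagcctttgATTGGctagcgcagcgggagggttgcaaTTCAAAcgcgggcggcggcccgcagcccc
Mcm6: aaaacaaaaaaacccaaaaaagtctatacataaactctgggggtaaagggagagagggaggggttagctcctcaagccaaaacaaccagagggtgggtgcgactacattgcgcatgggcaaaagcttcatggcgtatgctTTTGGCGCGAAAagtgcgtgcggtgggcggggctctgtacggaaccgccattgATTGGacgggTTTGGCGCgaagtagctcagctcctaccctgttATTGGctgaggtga
Pcna: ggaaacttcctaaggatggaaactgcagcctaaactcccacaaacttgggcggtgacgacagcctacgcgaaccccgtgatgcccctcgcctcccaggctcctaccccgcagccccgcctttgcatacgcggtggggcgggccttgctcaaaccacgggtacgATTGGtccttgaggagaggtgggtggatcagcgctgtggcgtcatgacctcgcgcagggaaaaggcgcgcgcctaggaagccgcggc
The Mki67 stretch (chr7:135716380-135716629, minus strand) holds 2 CHR matches, which begin 116 and 98 bases before the start, and 3 CCAAT boxes. The Ube2c stretch (chr2:164769679-164769928, plus strand) holds 1 CHR match on the reverse strand 29 bases before the start and 6 CCAAT matches. The Mcm6 stretch (chr1:128359706-128359955, minus strand) holds 3 E2F matches, beginning 110, 106 and 47 bases before the start, of which the first 2 overlap, and no CHR match. The Pcna stretch (chr2:132253181-132253430, minus strand) holds a single CCAAT box and neither of the other motifs.

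Depth was 14353483 to 16684832 recovered reads per library in the CCl4 table, 14883710 to 17157586 in hepatocytes and 32096879 to 68913793 counts in the TAA table. The 50 genes together took 1498 to 2461 CPM (counts scaled to library depth) in wild-type CCl4 livers and 143 to 175 in oil livers. Sting1 (listed as Tmem173) was at 3.42, 1.98 and 5.28 FPKM in the libraries labelled Sting knockout, against 6.10, 5.15 and 4.74 FPKM in wild-type CCl4 livers. These ranges overlap, so the transcript does not check the knockout label, and the group is called by its label throughout. Its library 2 stood apart by gene length. Among coding genes averaging 5 FPKM or more, split into 5 length classes, its median deviation from the gene's median was 0.83 (log2) in the shortest class and −0.38 in the longest, against −0.18 to 0.04 and −0.06 to 0.00 in libraries 3 and 1. Smaller tilts the other way were seen in wild-type CCl4 library 3 (−0.38 in the shortest class and 0 in the longest) and oil library 3 (−0.003 and 0.27). Exons of 17 of the 50 genes overlap those of another gene in the GENCODE vM21 annotation, most often on the opposite strand. The sources used here do not say whether counting used strand, so reads in these overlaps cannot be fully assigned. The overlap covers 67.3% of the exon bases of Gins2 (with Gse1), 29.3% of Kif20a, 23.4% of Ccnd1, 22.8% of Ube2c and 17.4% of Ccne2, and 12.7% or less of the others.

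**Figure D1:**
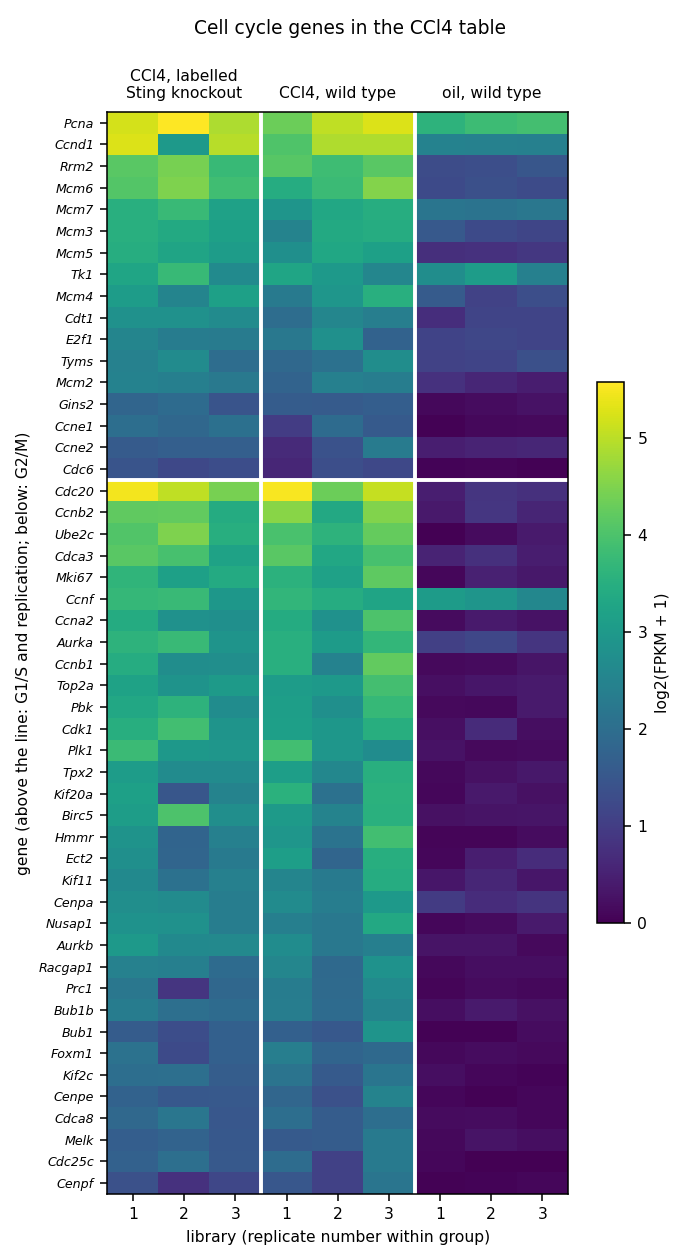
Level of each gene, as log2(FPKM + 1), in the 9 libraries of the CCl4 table, with G1/S and replication genes above the white line and G2/M genes below it, each ordered by the wild-type CCl4 mean. Most G2/M rows are near 0 in the 3 oil libraries and high in the 6 CCl4 libraries, whereas Tk1 and Ccnf are already high under oil.

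Repeated CCl4 raised nearly the whole set. With a limma fit on log2(FPKM + 1) over the 11511 genes averaging 1 FPKM or more, 46 of the 49 genes tested were higher in wild-type CCl4 livers than in oil livers at a Benjamini-Hochberg adjusted p under 0.05, and 0 were lower. Of all genes tested, 9.19% were called higher and 6.15% lower. The 46 comprise 14 of 16 G1/S and replication genes and 32 of 33 G2/M genes, with log2 differences of 1.02 to 4.26. Only 13 of the 50 genes had a mean of 1 FPKM or more under oil, so most passed the filter through the CCl4 groups alone. The count was therefore also made with no filter, where 44 of 50 genes were called higher beside 3.66% of the 26956 genes with any read, and with edgeR on reads recovered from the FPKM, where 48 of 50 were called higher beside 13.2% of genes (0 were lower, beside 5.51%). Values of all 3 CCl4 livers lay above all 3 oil livers for 49 of the 50 genes, Tk1 being the exception, beside 16.6% of the genes averaging 1 FPKM or more and 15.4% of all genes with a read.

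The median log2 difference was 1.40 over the 17 G1/S and replication genes and 2.38 over the 33 G2/M genes, beside −0.08 over all genes tested. These are differences on the log2(FPKM + 1) scale, which understates genes that are nearly off under oil. With edgeR on recovered reads the medians were 2.37 and 5.15. Scaling each library to the same FPKM sum moved the median of all genes to 0.46, a shift of the whole comparison, and the 2 medians to 2.33 and 3.52.

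Among the G1 and S phase cyclins and E2F, Ccnd1, the D-type cyclin that couples mitogens to G1 entry, was at 15.3, 29.0 and 28.8 FPKM in CCl4 livers and at 4.55, 4.42 and 4.39 FPKM in oil livers. The oil livers agreed closely and every CCl4 liver was above them, with CCl4 library 1 the lowest (log2 difference 2.16, SE 0.51, limma adjusted p = 0.0167). Ccne2, one of the E cyclins that activate CDK2, was at 0.583, 1.63 and 3.99 FPKM in CCl4 livers and at 0.376, 0.459 and 0.509 FPKM in oil livers. The groups did not overlap, but library 1 was close to oil and library 3 far above, and Ccne2 did not pass (log2 difference 0.93, SE 0.34, limma adjusted p = 0.0933). Without CCl4 library 3 its difference was 0.50, and without CCl4 library 1 it was 1.32 and passed (limma adjusted p = 0.0121). Its paralogue Ccne1 averaged 1.93 ± 0.933 FPKM under CCl4 and 0.0721 ± 0.0422 under oil, and E2f1, the activating E2F, averaged 4.01 ± 1.79 FPKM under CCl4 and 1.22 ± 0.0367 FPKM under oil (SD, n = 3 each). Both were called higher.

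All 8 tested genes of replication licensing and the helicase rose. Mcm6 was at 9.94, 12.9 and 22.2 FPKM in CCl4 livers and at 1.37, 1.57 and 1.42 FPKM in oil livers, 10.3-fold higher by the ratio of means (log2 difference 2.63, SE 0.28, limma adjusted p = 0.000331). Mcm7, a further subunit of the same ring, changed least, with 6.47, 9.05 and 10.0 FPKM in CCl4 livers against 3.46, 3.35 and 3.60 FPKM in oil livers (log2 difference 1.07, SE 0.22, limma adjusted p = 0.00917). It was among the genes already well above 1 FPKM under oil. Cdc6, which loads the helicase at origins, fell under the filter with 0.516, 1.54 and 1.31 FPKM in CCl4 livers and 0.0377, 0.0585 and 0.0179 FPKM in oil livers. Its groups were far apart, and it was called higher in the fit without a filter (limma adjusted p = 0.0300).

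The clamp and nucleotide supply genes divided. Rrm2, the small subunit of ribonucleotide reductase, was at 16.5, 13.4 and 16.7 FPKM in CCl4 livers and at 1.47, 1.54 and 1.82 FPKM in oil livers, with little spread in either group (log2 difference 2.66, SE 0.22, limma adjusted p = 7.91e-05). Pcna was at 18.8, 31.8 and 37.8 FPKM in CCl4 livers and at 11.1, 13.1 and 13.9 FPKM in oil livers, the highest oil level of the set (log2 difference 1.10, SE 0.30, limma adjusted p = 0.0310). Tk1, the S phase thymidine kinase, was at 8.63, 7.05 and 4.90 FPKM in CCl4 livers and at 5.59, 7.47 and 4.34 FPKM in oil livers. Its groups overlapped (log2 difference 0.21, SE 0.31, limma adjusted p = 0.736). Tk1 shares 83 exon bases with Afmid on the opposite strand, a kynurenine pathway gene at 10.5, 6.32 and 6.22 FPKM in CCl4 livers and 20.1, 20.8 and 20.003 FPKM in oil livers, and the part of that overlap in the Tk1 level was not tested. With no filter 12 of 17 G1/S and replication genes were called, Cdc6 among them, against 14 of 16 with it. The G2/M count was 32 of 33 in both. Among the calls lost with no filter were Pcna and Ccnd1 (limma adjusted p = 0.0601 and 0.0622). Leaving out 1 library took Pcna to between 0.0514 and 0.116 in 6 of 9 fits and Ccnd1 to between 0.0504 and 0.0588 in 5 of 9.

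Among the mitotic cyclins, CDK1 and its activators, 7 of 8 genes rose. Foxm1, the transcription factor of the G2/M programme, was at 4.18, 2.47 and 2.77 FPKM in CCl4 livers and at 0.0799, 0.133 and 0.0976 FPKM in oil livers (log2 difference 1.89, SE 0.24, limma adjusted p = 0.000791). Ccnb2, a cyclin partner of CDK1, had the largest difference of its class on the log2(FPKM + 1) scale, with 22.9, 9.31 and 21.99 FPKM in CCl4 livers against 0.300, 0.849 and 0.489 FPKM in oil livers (log2 difference 3.54, SE 0.35, limma adjusted p = 0.000184). By the ratio of means Ccnb2 was 33.1-fold higher and its sister cyclin Ccnb1 68.6-fold. The lowest CCl4 liver was thus still many times the highest oil liver. Ccnf, a cyclin F-box protein that has no CDK partner and targets substrates for degradation, was at 11.6, 9.84 and 8.52 FPKM in CCl4 livers and at 7.31, 6.51 and 4.93 FPKM in oil livers. It was the G2/M gene with the highest oil level, its groups did not overlap, and it did not pass (log2 difference 0.60, SE 0.26, limma adjusted p = 0.157).

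On the log2(FPKM + 1) scale the largest differences belonged to the partners of the anaphase-promoting complex, the ubiquitin ligase that ends mitosis. By the ratio of means Cdc20 was 50.3-fold higher, less than Hmmr at 97.8-fold, Ccnb1 at 68.6-fold or Plk1 at 59.0-fold. The other partner, Ube2c, was above Hmmr by that ratio (means of 14.7 and 0.147 FPKM). Cdc25c had the largest ratio of the set, with means of 2.64 FPKM under CCl4 and 0.0226 FPKM under oil, where its median was 0. Cdc20, the activator of that complex, was at 44.6, 18.8 and 32.6 FPKM in CCl4 livers and at 0.387, 0.818 and 0.702 FPKM in oil livers (log2 difference 4.26, SE 0.34, limma adjusted p = 7.20e-05). Ube2c was at 14.8, 11.1 and 18.1 FPKM in CCl4 livers and at 0, 0.118 and 0.324 FPKM in oil livers, where those levels were 0, 4 and 9 reads (log2 difference 3.76, SE 0.28, limma adjusted p = 4.70e-05). Both genes were nearly silent under oil and among the most abundant of the G2/M set under CCl4.

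All 5 mitotic kinases and their partners rose. Plk1, the kinase of mitotic entry and spindle assembly, was at 13.8, 6.65 and 5.58 FPKM in CCl4 livers and at 0.209, 0.104 and 0.128 FPKM in oil livers (log2 difference 2.98, SE 0.32, limma adjusted p = 0.000337). Melk, a kinase of the same expression programme, had the smallest difference of the class on the log2(FPKM + 1) scale, with 1.98, 2.08 and 3.87 FPKM in CCl4 livers against 0.0884, 0.231 and 0.158 FPKM in oil livers. By the ratio of means Melk was 16.6-fold higher and Aurka, a kinase of spindle poles, 9.37-fold. Library 1 was the highest CCl4 liver for Plk1 and the lowest for Melk.

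The 5 chromosomal passenger and spindle checkpoint genes rose as well. Birc5, which encodes survivin, was at 7.25, 4.59 and 10.6 FPKM in CCl4 livers and at 0.193, 0.225 and 0.248 FPKM in oil livers (log2 difference 2.73, SE 0.34, limma adjusted p = 0.000650). Cdca8, which encodes borealin of the same complex, was at 3.06, 2.10 and 3.03 FPKM in CCl4 livers and at 0.114, 0.133 and 0.0724 FPKM in oil livers. Its log2 difference of 1.74 was the smallest of the class on the log2(FPKM + 1) scale, but by the ratio of means it was 25.6-fold higher and the checkpoint kinase gene Bub1b 17.5-fold.

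Of the 6 kinesin and centromere genes, all called higher, Kif20a, a motor of cytokinesis, was at 10.8, 3.20 and 10.8 FPKM in CCl4 livers and at 0.0692, 0.302 and 0.197 FPKM in oil livers. Cenpf, a large kinetochore protein, was at 1.87, 1.12 and 3.47 FPKM in CCl4 livers and at 0.0170, 0.0446 and 0.0728 FPKM in oil livers, with a log2 difference of 1.53 that was the smallest of the class on the log2(FPKM + 1) scale. By the ratio of means Cenpf was 48.0-fold higher and Cenpa, the centromeric histone H3 variant, 6.97-fold. In the 5 spindle-binding and cytokinesis genes, also all called, Hmmr, a spindle protein and hyaluronan receptor, was at 6.63, 3.35 and 13.8 FPKM in CCl4 livers and at 0.0484, 0.0563 and 0.138 FPKM in oil livers. Library 2 was the lowest CCl4 liver for Kif20a, Cenpf and Hmmr. Prc1, which bundles microtubules at the midzone, was at 4.09, 2.77 and 5.33 FPKM in CCl4 livers and at 0.0559, 0.112 and 0.0911 FPKM in oil livers, and library 2 was again lowest.

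For chromosome structure, Mki67 was at 10.9, 8.08 and 17.1 FPKM in CCl4 livers and at 0.0718, 0.425 and 0.289 FPKM in oil livers, 46.0-fold higher by the ratio of means (log2 difference 3.32, SE 0.26, limma adjusted p = 6.42e-05). Top2a, the topoisomerase that separates sister chromatids, was at 7.50, 7.07 and 14.0 FPKM in CCl4 livers and at 0.168, 0.271 and 0.322 FPKM in oil livers (log2 difference 3.01, SE 0.25, limma adjusted p = 7.77e-05). Library 3 was the highest CCl4 liver for both.

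**Figure D2:**
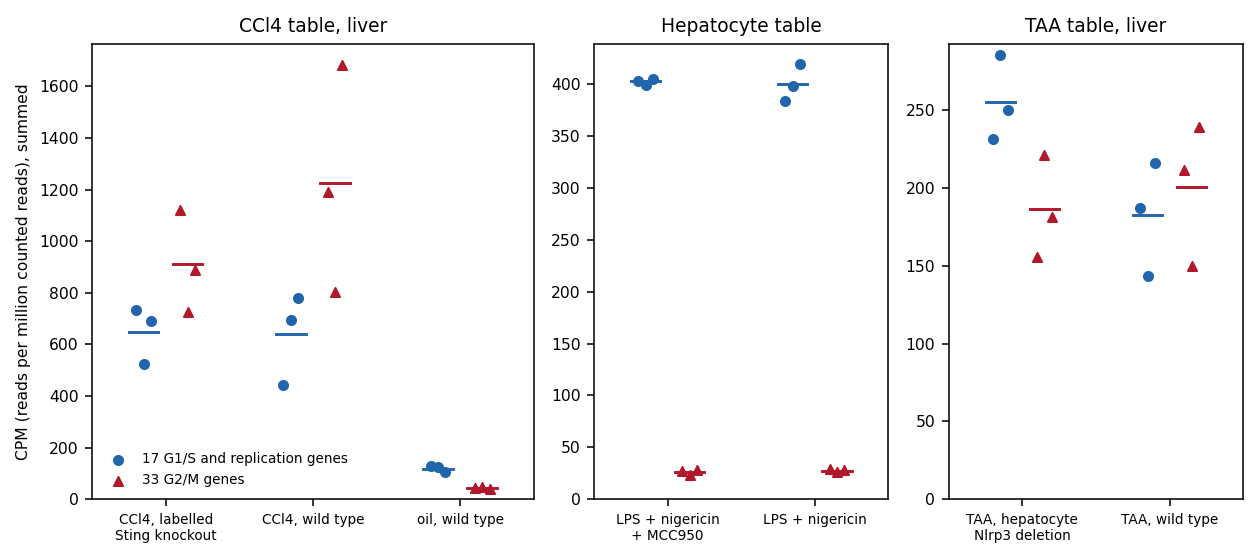
Level in CPM (counts scaled to library depth) summed over the 17 G1/S and replication genes (circles) and over the 33 G2/M genes (triangles), 1 point per library with the group mean as a bar, in each of the 3 deposited tables, whose vertical axes differ. In wild-type liver the G2/M sum is above the G1/S sum under CCl4 and below it under oil, and in hepatocytes the G2/M sum is far below the G1/S sum.

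The 2 phases contributed differently to the rise. Reads of the G2/M genes were 2.68, 1.16 and 2.16 times those of the G1/S and replication genes in the 3 CCl4 livers, against 0.337, 0.395 and 0.367 times in the oil livers. This ratio is taken within a library and does not depend on scaling between libraries. The CCl4 livers differed from each other in phase as well as in level. Library 1 had the lowest sum over G1/S and replication genes (444 CPM) with a G2/M sum of 1191, and library 2 the lowest G2/M sum (803) with 695 over G1/S and replication genes. Library 3 was highest in both, with 779 and 1682. Single genes show this, with Mcm2 at 2.42 FPKM in library 1 against 4.39 and 4.14 in libraries 2 and 3, and Ccnb1 at 10.4 FPKM in library 1 against 4.57 in library 2.

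Further genes of the pathway were counted in lists, of which those that passed are named by the smallest p. Of 23 other replication genes tested, 9 were higher and 1 lower under CCl4, beside the background of 9.19% and 6.15% given above. Uhrf1, which directs maintenance methylation to new DNA, averaged 4.76 ± 1.62 FPKM under CCl4 and 0.147 ± 0.111 under oil, and Lig1, the ligase of lagging strand synthesis, 4.47 ± 0.997 FPKM under CCl4 and 0.676 ± 0.348 FPKM under oil. Mcm10, a replication initiation factor, went the other way, with 1.30, 2.15 and 1.59 FPKM in CCl4 livers against 6.96, 6.98 and 5.88 FPKM in oil livers (log2 difference −1.51, limma adjusted p = 0.00113). Of 33 other mitotic genes, 28 were higher and 0 lower, among them the spindle gene Ckap2l, the condensin subunit Ncaph and the kinesin Kif22.

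Of 16 inhibitors and brakes of the cycle tested, 7 were higher, 0 were lower and 9 did not pass, beside 9.19% and 6.15% of all genes called higher and lower. Cdkn2c, an inhibitor of the D cyclin kinases, averaged 10.2 ± 2.09 FPKM under CCl4 and 2.17 ± 0.768 under oil. Cdkn2a, which encodes a related inhibitor and ARF, was at 2.82, 2.06 and 1.65 FPKM in CCl4 livers and listed at 0 in all 3 oil livers (limma adjusted p = 0.00120). Rbl1, which encodes the pocket protein p107, averaged 3.64 ± 1.33 FPKM under CCl4 and 0.538 ± 0.0618 under oil. In the remaining lists 1 of 6 G1 kinases and D cyclins (the CDK phosphatase Cdc25a), 1 of 12 E2F, DREAM and MuvB factors (E2f2) and 0 of 11 liver mitogens, their receptors and Myc were higher, and 0 were lower. Set beside the 9.19% of all genes called higher, these counts are no result about those lists.

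Markers of some other cell types moved with these genes. Of 9 macrophage and monocyte markers tested, 9 were higher under CCl4, and their summed level was 712 to 1007 FPKM in CCl4 livers against 117 to 158 in oil livers. Of 9 stellate cell and myofibroblast markers, 7 were higher (196 to 417 FPKM in CCl4 livers against 45.7 to 58.3 in oil livers), and 3 of 3 neutrophil markers, 1 of 4 cholangiocyte markers and 0 of 10 hepatocyte markers were higher, with 0 hepatocyte markers lower. Of 5 Kupffer cell markers 2 were higher, as were 1 of 4 B and plasma cell markers and 1 of 7 sinusoidal endothelium markers. None of 2 T and NK cell markers was called. Red cell precursor markers went the other way, with 0 of 4 higher and 2 lower. No defining marker of hepatocytes was at 0 in any liver, Alb being at 21970 FPKM or more. In whole liver, more cells of a type and more RNA per cell cannot be told apart, and the part of these cell types in the cell cycle result was not tested.

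The comparison of livers labelled Sting knockout with wild-type livers under CCl4 asks whether the gene alters this response. None of the 49 genes tested was called higher or lower by limma (0 and 0, beside 0.00% and 0.00% of all genes), edgeR on recovered reads likewise called 0 and 0 of 50, and no filter also called 0 and 0 of 50 (beside 0.00% and 0.00742%). In the limma fit 1 gene had an unadjusted p under 0.05, beside 366 of all 11511. With the replicate number as a block there were 2, beside 1089 of 11511. The median log2 difference was 0.19 over the G1/S and replication genes and −0.18 over the G2/M genes, beside 0.02 over all genes. The values were above 0 for 16 of 17 G1/S and replication genes and below 0 for 23 of 33 G2/M genes. Scaling each library to the same FPKM sum moved the medians to −0.049 and −0.47 and that of all genes to −0.24, a shift of the whole comparison.

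Cdt1, which with Cdc6 loads the helicase, was at 6.05, 6.03 and 5.45 FPKM in livers labelled Sting knockout and at 2.94, 4.91 and 4.23 FPKM in wild-type livers. It was the only 1 of the 50 genes whose groups did not overlap, where 2.35% of genes averaging 1 FPKM or more did so upwards and 2.78% downwards, and 1.85% and 3.36% of all genes with a read (log2 difference 0.46, SE 0.21, limma adjusted p = 0.761). Ccne1 was at 3.004, 2.61 and 3.17 FPKM in livers labelled Sting knockout and at 0.972, 2.84 and 1.98 FPKM in wild-type livers, where library 1 was again low (log2 difference 0.47, SE 0.24, limma adjusted p = 0.761). On the lower side, Prc1 was at 3.63, 0.818 and 2.62 FPKM in livers labelled Sting knockout against 4.09, 2.77 and 5.33 FPKM in wild-type livers (log2 difference −0.67, SE 0.32, limma adjusted p = 0.761). Cenpf was at 1.60, 0.736 and 1.28 FPKM in livers labelled Sting knockout and at 1.87, 1.12 and 3.47 FPKM in wild-type livers (log2 difference −0.47, SE 0.27, limma adjusted p = 0.761). Library 2 of the livers labelled Sting knockout was the lowest of the 6 for both. Leaving out 1 library moved these values by over 1.5 times. Without that library 2 the differences were −0.28 for Prc1 and −0.30 for Cenpf, without wild-type library 2 Cenpf was at −0.72, and without wild-type library 1 the differences were 0.21 for Ccne1 and 0.30 for Cdt1.

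**Figure D3:**
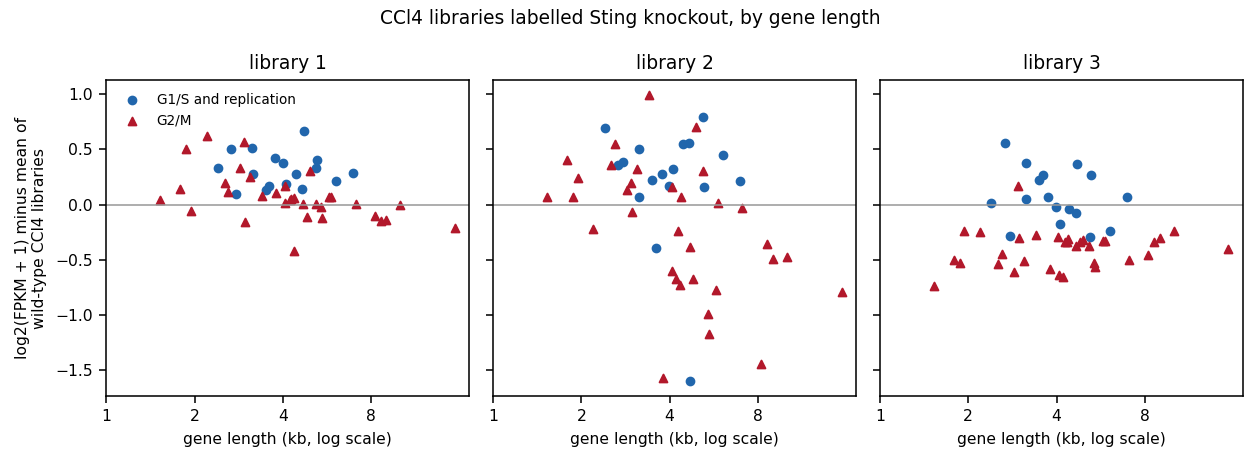
Difference of each gene from the mean of the wild-type CCl4 livers, as log2(FPKM + 1), against gene length in kb on a log axis, for the 3 libraries labelled Sting knockout. In library 2 the longer genes lie lower than the shorter ones, and in libraries 1 and 3 the points are more even along the axis.

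That library is the one that stood apart by gene length. For the 25 shorter genes its median difference from the wild-type mean was 0.22 and for the 25 longer ones −0.36, against 0.18 and 0.04 in library 1 and −0.27 and −0.33 in library 3. Ccnd1 was at 7.06 FPKM in library 2 against 37.8 and 30.5 FPKM in libraries 1 and 3. Without library 2, 0 of the cell cycle genes were called in either direction, as in each of the other fits that left out 1 library. Unadjusted p-values were less steady. Without wild-type CCl4 library 2, 11 cell cycle genes had an unadjusted limma p under 0.05, 2 of them higher and the rest lower. With every library there was 1 such gene, and the other fits that left out 1 library gave 0 to 2. Over all genes, that fit had 869 of 11515 under 0.05 and 1 called, against 366 of 11511 and 0 with every library.

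Livers labelled Sting knockout under CCl4 were set against the same wild-type oil livers, which both comparisons share. No livers labelled Sting knockout had received oil, so genotype label and toxin differ together here and cannot be told apart. By limma 46 of 49 genes were higher and 0 lower, beside 8.00% and 5.91% of all genes, and the no-filter fit called 40 of 50 higher beside 2.61%. Livers labelled Sting knockout lay above all oil livers for 48 of the 50 genes and below for 0, beside 17.8% and 19.8% of genes averaging 1 FPKM or more. Median log2 differences were 1.57 over G1/S and replication genes and 2.25 over G2/M genes. The 46 called genes had log2 differences of 1.06 to 4.28, and Mki67 averaged 9.70 ± 1.76 FPKM in livers labelled Sting knockout and 0.262 ± 0.178 FPKM in oil livers (SD, n = 3 each). The 3 genes that did not pass were again Ccne2, Ccnf and Tk1. Ccne2 was at 2.01, 2.21 and 2.22 FPKM in livers labelled Sting knockout and at 0.376, 0.459 and 0.509 FPKM in oil livers, and its groups were far apart (limma adjusted p = 0.0504). Ccnf was at 11.98, 12.6 and 6.69 FPKM in livers labelled Sting knockout against 7.31, 6.51 and 4.93 FPKM in oil livers, and Tk1 at 8.67, 12.4 and 5.30 FPKM in livers labelled Sting knockout against 5.59, 7.47 and 4.34 FPKM in oil livers. Both overlapped with oil through library 3 (limma adjusted p = 0.145 and 0.339), and without that library Ccnf passed (limma adjusted p = 0.0490). Markers of some other cell types moved here too. Macrophage markers (7 of 9 called higher) summed to 638 to 854 FPKM in livers labelled Sting knockout and 117 to 158 FPKM in oil livers, and stellate cell markers (6 of 9) to 254 to 458 FPKM in livers labelled Sting knockout and 45.7 to 58.3 FPKM in oil livers. Red cell precursor markers (1 of 4 higher and 1 lower) summed to 1705 to 2713 FPKM in livers labelled Sting knockout, against 236 to 979 FPKM in wild-type CCl4 livers and 321 to 881 FPKM in oil livers. This sum set the livers labelled Sting knockout apart from both other groups, but against wild type under CCl4 0 of the 4 markers tested were called. The part of these markers in the cell cycle values was not tested. Of the other lists, 16 of 23 replication genes and 28 of 33 mitotic genes were higher, Mcm10 was again lower, and the receptor of hepatocyte growth factor, Met, was lower at 7.95 ± 1.97 FPKM against 17.9 ± 4.36 FPKM under oil.

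Cultured hepatocytes held several replication genes at high levels and, apart from Ccnf, the mitotic ones at a mean under 1 FPKM. Hepatocyte markers summed to 38066 to 41005 FPKM with MCC950 and 37507 to 43131 FPKM without, and the 10 macrophage and monocyte markers to 27.3 to 34.9 FPKM with MCC950 and 28.7 to 35.6 FPKM without. Nearly all of the macrophage sum was Cd68 (26.7 to 34.1 FPKM with MCC950 and 28.3 to 35.0 FPKM without), while Adgre1 was at 0.121 FPKM or less and Lyz2 at 0.554 FPKM or less. Cholangiocyte markers summed to 57.6 to 66.9 FPKM with MCC950 and 52.7 to 64.9 FPKM without, most of it Spp1, with Krt19 at 0.181 FPKM or less. The part of these markers in the cell cycle values was not tested. Pcna was at 32.3, 32.0 and 37.0 FPKM with MCC950 and at 27.5, 33.2 and 32.7 FPKM without, and Rrm2, Mcm6 and Cdt1 averaged 28.7, 23.9 and 11.5 FPKM with MCC950 and 30.2, 23.6 and 11.8 FPKM without. By contrast, Mki67 was at 0.0167, 0.0559 and 0.0168 FPKM with MCC950 and at 0.00670, 0 and 0.00604 FPKM without, which is 10 reads or fewer per library. Another 5 G2/M genes (Ccnb1, Cdc25c, Kif2c, Cenpf and Hmmr) were listed at 0 in every library. Within G1/S and replication the set divided too, since Ccnd1 was at 0.202, 0.358 and 0.264 FPKM with MCC950 and at 0.258, 0.312 and 0.439 FPKM without, and Tk1 was at 0.330 FPKM or less. Reads of the G2/M genes were 0.0587 to 0.0693 times those of the G1/S and replication genes with MCC950 and 0.0654 to 0.0752 times without.

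**Figure D4:**
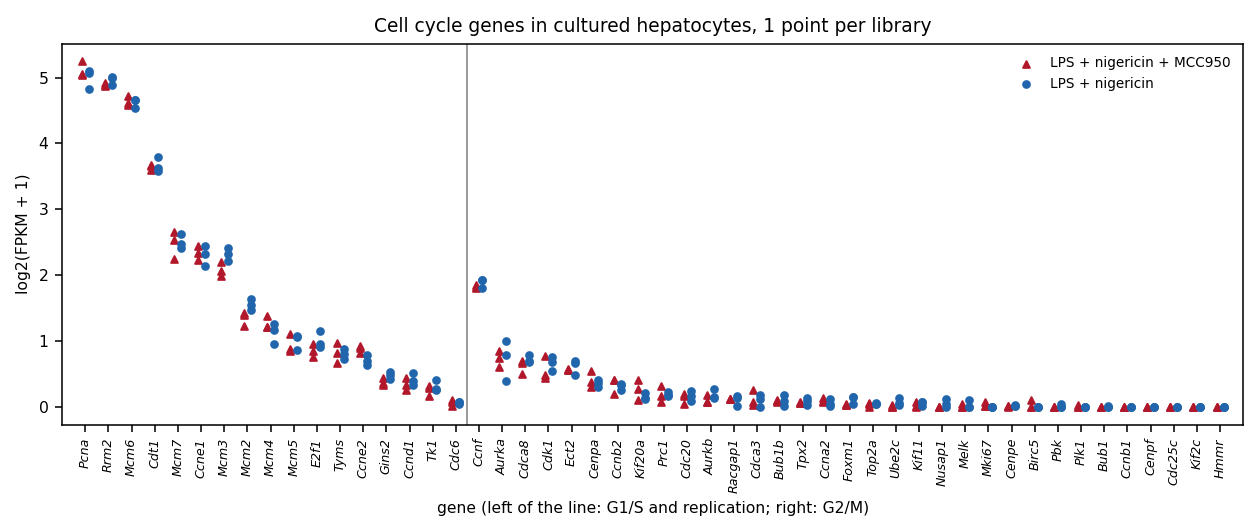
Level of each of the 50 genes, as log2(FPKM + 1), in the 3 hepatocyte libraries with MCC950 (triangles) and the 3 without (circles), with G1/S and replication genes left of the line and G2/M genes right of it, each ordered by mean level. Pcna, Rrm2, Mcm6 and Cdt1 are high, Ccnf is the one G2/M gene with a mean above 1 FPKM, and the groups lie close together for every gene.

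MCC950 was set against no inhibitor to ask for effects of NLRP3 inhibition. Only 10 of the 50 genes averaged 1 FPKM or more (9 G1/S and replication genes and Ccnf), and 0 were called higher or lower by limma, beside 0.00% and 0.00% of all genes. With edgeR on recovered reads 0 of 25 tested were called, and no filter called 0 of 45, beside 0.00457% of all genes in each direction. At an unadjusted limma p under 0.05 there were 2, beside 1168 of all 9835 genes tested, so this count is no result about these genes. With the replicate number as a block there were 0, beside 1707 of 9835. The 2 genes under 0.05 without the block were helicase subunits. Mcm3 was at 3.20, 3.63 and 2.98 FPKM with MCC950 and at 4.31, 3.64 and 3.99 FPKM without (log2 difference −0.22, SE 0.08, limma adjusted p = 0.402). Mcm2 was at 1.68, 1.62 and 1.35 FPKM with MCC950 and at 1.77, 2.13 and 1.92 FPKM without (log2 difference −0.21, SE 0.08, limma adjusted p = 0.417). The groups of both did not overlap but nearly touched, and 10.8% of genes averaging 1 FPKM or more likewise lay lower without overlap. Over all 50 genes 2 lay higher without overlap (Mki67 and Ccne2) and 3 lower (with Ube2c), beside 6.02% and 6.64% of all genes with a read, and 8.88% of those averaging 1 FPKM or more lay higher. Upwards the smallest p-values were those of Mcm4, at 1.61, 1.33 and 1.32 FPKM with MCC950 against 0.939, 1.25 and 1.41 FPKM without, and of Pcna. Both overlapped (limma adjusted p = 0.573 and 0.603), and without library 1 of the cells given no inhibitor their differences were 0.056 and 0.031, against 0.14 and 0.12 with it. The other helicase subunit of high level, Mcm6, was at 23.5, 23.0 and 25.3 FPKM with MCC950 and at 24.2, 22.1 and 24.4 FPKM without. In the 6 pathway lists 0 genes were called in either direction.

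In TAA-treated liver the hepatocyte Nlrp3 deletion was set against wild type. All 50 genes entered edgeR's quasi-likelihood test on counts, and 0 were called higher and 1 lower, beside 1.37% and 0.360% of all genes tested. That gene was Mki67, at 1.16, 0.86 and 0.86 FPKM in deletion livers and at 2.98, 1.91 and 2.83 FPKM in wild-type livers. The groups were well apart, with deletion livers at 0.373 of the wild-type mean FPKM (log2 fold change −1.76, SE of log2 CPM 0.20, edgeR adjusted p = 0.0487). The call sat at the threshold. It was lost with RLE factors (edgeR adjusted p = 0.0506), with the replicate number as a block (0.0802) and in 5 of the 6 fits that left out 1 library (0.0965 to 0.196). The block had little basis here, since same-numbered libraries hardly deviated together (correlations 0.075, −0.036 and −0.024). Top2a, which shares its role and its expression programme, was at 0.42, 0.84 and 0.66 FPKM in deletion livers and at 0.48, 0.42 and 0.63 FPKM in wild-type livers, with overlapping groups (log2 fold change −0.06, edgeR adjusted p = 0.915).

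A further 3 G2/M genes were lower without overlap and did not pass. Cenpf was at 0.26, 0.15 and 0.17 FPKM in deletion livers and at 0.44, 0.33 and 0.51 FPKM in wild-type livers (log2 fold change −1.49, edgeR adjusted p = 0.0512). Cenpe, the kinesin that aligns chromosomes, and Cdc25c, the phosphatase that activates CDK1, had log2 fold changes of −1.41 and −1.50 (edgeR adjusted p = 0.0907 and 0.0913). Mki67 and Cenpf have exon lengths of 10061 and more bases and are the longest of the 50 genes. Among coding genes averaging 5 FPKM or more in this table, the shortest of 5 length classes lay 0.23 to 0.39 above the gene's median in deletion livers and −0.51 to −0.15 in wild-type livers, and the longest lay at 0.12 to 0.23 in deletion livers and −0.37 to 0.02 in wild-type livers, and the part of length in these values was not tested.

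On the other side, Pcna was at 5.53, 12.8 and 14.6 FPKM in deletion livers and at 3.12, 2.18 and 3.21 FPKM in wild-type livers. Every deletion liver was above every wild-type liver, with deletion library 1 closest to them (log2 fold change 1.57, SE of log2 CPM 0.40, edgeR adjusted p = 0.0501). Rrm2 was at 1.14, 3.79 and 2.37 FPKM in deletion livers and at 0.80, 0.91 and 0.77 FPKM in wild-type livers (log2 fold change 1.11, edgeR adjusted p = 0.140). E2f1 was at 1.42, 1.47 and 1.54 FPKM in deletion livers against 0.77, 0.75 and 0.85 FPKM in wild-type livers, tight in both groups (log2 fold change 0.51, edgeR adjusted p = 0.255). In FPKM, 6 genes lay higher without overlap (4 G1/S and replication genes and 2 G2/M genes) and 4 lower. Of the 2 G2/M genes, Melk was at 0.18, 0.38 and 0.16 FPKM in deletion livers and at 0.06, 0.05 and 0.13 FPKM in wild-type livers (log2 fold change 1.19). Prc1 was at 0.30, 0.72 and 0.59 FPKM in deletion livers and at 0.25, 0.25 and 0.29 FPKM in wild-type livers. Among genes averaging 1 FPKM or more, 39.3% lay higher and 4.68% lower. Among all genes with a read these were 16.4% and 6.05%, so the FPKM of deletion livers ran high as a whole. On that scale the median of all genes was 0.33, against −0.04 in the edgeR fit.

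**Figure D5:**
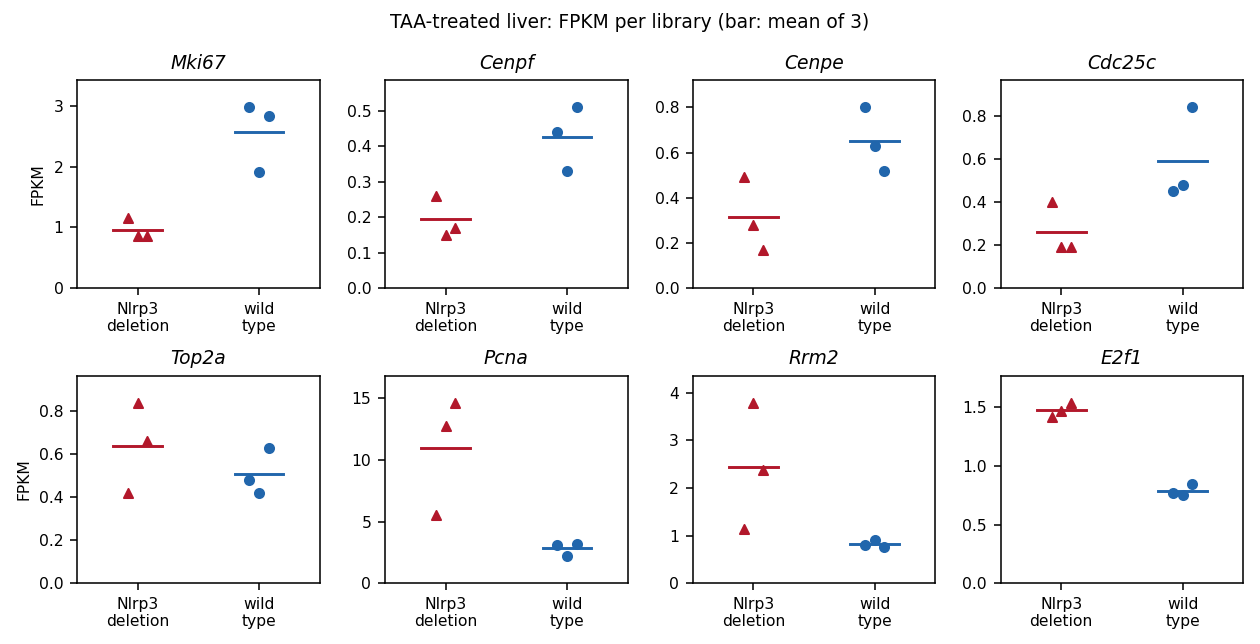
FPKM of 8 genes in the 3 TAA-treated livers with hepatocyte Nlrp3 deletion (triangles, left) and the 3 wild-type livers (circles, right), with the mean as a bar and each vertical axis starting at 0. Mki67, Cenpf, Cenpe and Cdc25c lie lower in every deletion liver, Pcna, Rrm2 and E2f1 higher in every deletion liver, and Top2a overlaps. Melk and Prc1, G2/M genes that also lay higher in every deletion liver, are not shown.

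Calls in this comparison changed with every library left out. Over all genes there were 322 with every library, 0 to 16 without any 1 of the wild-type libraries or of deletion libraries 2 and 3, and 1 with RLE factors. Deletion library 1 acted the other way. Without it 3 genes were called higher (Pcna, Rrm2 and Kif20a) and 8 lower (Mki67, Cenpf, Cenpe, Cdc25c, Foxm1, Ccna2, Cenpa and Mcm7). In that fit 7555 of all 19889 genes tested were called in either direction, a larger share than among the cell cycle genes. These calls therefore do not set the cell cycle genes apart from other genes. With DESeq2 1 gene was higher and 4 were lower, beside 6.09% and 5.20% of all genes, and with no filter 1 was higher and 2 were lower, beside 3.40% and 1.36%. The median log2 fold change in the edgeR fit was 0.25 over the G1/S and replication genes and −0.16 over the G2/M genes. Within a library, reads of the G2/M genes were 0.674, 0.775 and 0.727 times those of the G1/S and replication genes in deletion livers, against 1.13, 1.05 and 1.11 times in wild-type livers. Without Pcna and Mki67, a choice made after their values were seen, the ratios were 0.658, 0.849 and 0.824 in deletion livers against 0.982, 0.923 and 0.988 in wild-type livers. In both forms the groups stayed apart, and no test was made of these ratios.

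The TAA libraries also differed in composition along the groups. Mitochondrial genes took 12.5, 5.63 and 6.94% of counts in deletion livers and 30.4, 34.7 and 27.8% in wild-type livers, and genes of rRNA type took 0.313 to 0.464% in deletion livers and 1.83 to 10.3% in wild-type livers. Hepatocyte markers summed to 27770 to 36414 FPKM in deletion livers and 10149 to 11011 FPKM in wild-type livers, with 1 of 10 called higher, and macrophage markers to 53.5 to 258 FPKM in deletion livers and 38.9 to 53.2 FPKM in wild-type livers, with 0 of 10 called. No hepatocyte marker was at 0, and the part of these differences in the cell cycle values was not tested. Nlrp3 itself was at 0.08, 0.37 and 0.25 FPKM in deletion livers and at 0.15, 0.11 and 0.17 FPKM in wild-type livers, so whole liver, which holds other cells than the targeted hepatocytes, does not check the deletion. Ccnd1, the most abundant of the 50 genes in this table, was at 14.1, 17.9 and 14.6 FPKM in deletion livers and at 11.6, 8.14 and 15.2 FPKM in wild-type livers (log2 fold change 0.06, edgeR adjusted p = 0.881). In the 6 pathway lists 0 genes were called in either direction.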

How the data were processed

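RNA was sequenced in 21 mouse libraries. Per the submitters' processing notes, the tools were HISAT2 2.2.1 and featureCounts 1.5.0-p3 and the build mm10. The authors deposited 3 tables: FPKM values for the CCl4 and hepatocyte libraries, and raw counts with FPKM for the TAA libraries, per the file headers. In the first 2 tables, multiplying FPKM by length and dividing by a constant fixed in each library returned whole reads for 100% of values (tolerance 0.05).

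Differences in the CCl4 and hepatocyte tables were tested with limma 3.58.1 (intensity trend) on log2(FPKM + 1) for genes averaging 1 FPKM or more; the 9 CCl4 table libraries shared 1 fit. The deposited counts of the TAA livers were tested with edgeR 4.0.16 (TMM, filterByExpr, quasi-likelihood). Tests were two-sided, adjusted by Benjamini-Hochberg over all genes tested and called under 0.05. R was 4.3.3, and DESeq2 1.42.0 an alternative. Fits were tested on simulated data. Depth limits precision for genes with few reads. Means are given ± SD.

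The members and lists were chosen with earlier results of these data known. Values per library are given for Mki67, Pcna, Ccnd1, Foxm1, the members with the largest and smallest change in each of 10 roles under CCl4, members not called there, called members elsewhere or, where none was called, the 2 with the smallest p each way. For livers labelled Sting knockout against oil only the uncalled members are given so; other genes with values were chosen after these were seen. Same-numbered libraries deviated together for CCl4 against oil (correlations 0.23, 0.32 and 0.52) and for Sting knockout against wild type (0.19, 0.18 and 0.12), so the replicate number was also fitted as a block. Correlations were 0.022, 0.18 and 0.093 for Sting knockout against oil and 0.18, 0.22 and 0.085 for MCC950. For TAA they were 0.075, −0.036 and −0.024, so the block had little basis there.

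Promoters are from RefSeq (GRCm38.p6). Start and end equalled GENCODE vM21 (GRCm38, the same assembly as mm10) for 47 of 50 members.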

Additional observations from a re-analysis of the deposited data

How the results depend on the processing

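No value turned its direction from called higher to called lower under any alternative run. With a filter of at least 5 FPKM, 21 of 23 genes were higher in CCl4 livers than in oil livers, and 21 of 23 in livers labelled Sting knockout. Of all 5888 genes tested there, 877 and 829 were called in either direction. On the log2 scale, the median over G1/S and replication genes under CCl4 against oil was 2.26 with a pseudocount of 0.1, 2.33 scaled to the same FPKM sum and 2.37 with edgeR on recovered reads, and the G2/M median 4.45, 3.52 and 5.15. For livers labelled Sting knockout against oil these were 2.46, 2.38 and 2.55, and 4.39, 3.05 and 4.90. Against wild type under CCl4, scaling gave −0.049 and −0.47. For MCC950, quantile normalization gave medians of 0.0014 and −0.067, and the pseudocount of 0.1 a G2/M median of −0.051. The cause of these shifts was not tested, except that a smaller pseudocount or a count model compresses low values less.

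In TAA livers 1 gene was higher with DESeq2, limma on FPKM, no filter, or no mitochondrial, rRNA and pseudogene counts. Lower were 0 genes with RLE factors, 4 with DESeq2, 2 with no filter and 2 without those counts, and limma gave a G2/M median of 0.021. Over all genes, limma on FPKM called 2642 of 11165 and the run without those counts 699 of 17267, in either direction. With the replicate number as a block, which had little basis in these libraries, 0 genes were lower, and calls over all genes were 2 against 322 without the block. The same block left 2 against 1 of the 50 genes at an unadjusted p under 0.05 for Sting knockout against wild type, and 0 against 2 for MCC950. Over all genes these were 1089 against 366 of 11511, and 1707 against 1168 of 9835. The block changed no other count of called members by more than 1.5 times.

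Leaving out 1 library gave 42 to 47 genes higher for CCl4 against oil and for livers labelled Sting knockout against oil. It gave 0 for Sting knockout against wild type and for MCC950, and 0 to 3 for TAA, where 0 to 8 were lower. Both TAA maxima came from the fit without deletion library 1, where 7555 of all 19889 genes tested were called. G1/S and replication medians ranged 1.19 to 1.48 (CCl4 against oil), 1.51 to 1.75 (Sting knockout against oil), 0.052 to 0.35 (Sting knockout against wild type), −0.062 to −0.0078 (MCC950) and 0.15 to 0.31 (TAA). G2/M medians ranged 2.23 to 2.66, 2.00 to 2.39, −0.37 to 0.01, −0.01 to 0 and −0.45 to 0.00011 in the same order. Depth limits the mitotic genes in hepatocytes and oil livers, where many had a few reads.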

Other observations

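In cultured hepatocytes, Cdkn1a, which encodes the CDK inhibitor p21, was at 84.1, 91.7 and 85.1 FPKM with MCC950 and at 87.9, 101 and 97.5 FPKM without, above Pcna in every library. It was chosen after its values were seen.

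Mcm10, lower under CCl4, was at 8.50, 3.66 and 6.73 FPKM in TAA-treated livers with hepatocyte Nlrp3 deletion and at 8.01, 5.46 and 5.06 FPKM in TAA-treated wild-type livers, with overlapping groups. Cdkn2a was at 1.83, 1.39 and 0.706 FPKM in livers labelled Sting knockout and at 2.82, 2.06 and 1.65 FPKM in wild-type CCl4 livers, and was listed at 0 in every hepatocyte library.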
